A study of Homo sapiens with 30 samples.

Results

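Glutamine uptake and glutaminolysis were followed through the transcripts of 9 genes in human acute myeloid leukemia (AML) cell lines. The genes were given by name, as a pathway, and no measured value entered the rule that lists them: the plasma membrane carriers SLC1A5, SLC38A1 and SLC38A2, the glutamine synthetase GLUL, the glutamate dehydrogenase GLUD1, the transaminases GOT1, GOT2 and GPT2, and the mitochondrial glutamate carrier SLC25A22. They do not cover every step of the pathway, and they were chosen with earlier results of these data known. They are 9 of the 60675 genes counted in the miR-1 overexpression series and of the 58051 genes counted in the MPC1 knockout series. All 9 passed the filter on low counts in both series, in which 17542 and 14490 genes were tested.

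RNA was sequenced in 30 libraries, with 3 libraries in each of 10 groups. In the overexpression series (12 libraries), MV4-11 and Molm-14 cells received a lentivirus with an EF1α promoter, GFP and MIR1-2 host gene sequence, for overexpression of miR-1 (OE), or its empty counterpart (EV). The knockout series (18 libraries) used lentiCRISPRv2 with a GFP marker and 1 guide against MPC1 (KO), or its empty vector, and covered THP-1 besides MV4-11 and Molm-14. MPC1 encodes part of the mitochondrial pyruvate carrier. MV4-11 and Molm-14 carry an internal tandem duplication of FLT3, and THP-1 is a monocytic AML line. Untransduced cells were not among the groups, and the sources used here do not say whether the 3 libraries of a group came from separate infections, clones or cultures, so p-values measure only the spread between these libraries.

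Glutamine enters cells through sodium-coupled carriers and is deamidated to glutamate, which the mitochondrial carrier SLC25A22 can bring into the matrix. Glutamate then yields 2-oxoglutarate, an intermediate of the TCA cycle, either through GLUD1, which releases ammonia, or through transaminases, which pass the amino group to oxaloacetate (GOT1 and GOT2) or to pyruvate (GPT2). GLUL runs the opposite way and makes glutamine from glutamate and ammonia. In cells that import less pyruvate into mitochondria, glutamine is an alternative source of carbon for the TCA cycle.

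The overexpression libraries held 15543301 to 20939985 counts each and the knockout libraries 5339360 to 9106478, and levels are given as counts-per-million (CPM) on TMM-scaled library sizes. The labels were checked first. MPC1 was lower in all 3 KO groups, at 44.1% of the EV level in MV4-11, 48.5% in Molm-14 and 55.8% in THP-1, and transcripts of MIR133A1HG, the host gene of the vector insert, had counts in OE libraries only, at up to 4.06 CPM. The myeloid markers CD33 (48.2 to 179.5 CPM), SPI1 (24.3 to 217.6) and CEBPA (226.0 to 598.0) were present in every library. So were PTPRC (87.6 to 603.5), LYZ (94.5 to 7529.5) and FLT3 (124.3 to 886.1). The other myeloid markers read were low in some libraries, namely MPO (5.35 to 93.0), ITGAM (2.56 to 32.7) and CSF1R (1.35 to 84.0). Of 10 markers of T, B, erythroid, epithelial and fibroblast cells, 9 stayed at or under 1.99 CPM, and the epithelial keratin KRT18 reached 33.0 CPM. In 2 MV4-11 libraries of the overexpression series, OE replicate 1 and EV replicate 3, the mean log2 CPM of 14 interferon-stimulated genes was 5.47 and 3.18, against 0.45 to 0.76 in the other 4. Values without both libraries are given for comparisons that use them. In bulk RNA, fewer cells of a type and less RNA per cell cannot be told apart.

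To show what miR-1 could pair with in these genes, its mature sequence and its seed matches in their 3′ UTRs were read. The RefSeq sequence of miR-1-3p (GRCh38.p14) has its seed, bases 2 to 8, in capitals.

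hsa-miR-1-3p: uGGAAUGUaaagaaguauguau

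The canonical 3′ UTRs of GENCODE release 44 (GRCh38) were searched on the transcribed strand for ACATTCCA (8mer), ACATTCC (7mer-m8) and CATTCCA (7mer-A1), where an 8mer was counted once as the longest type. No 8mer was found in the 9 genes, and 3 of the 9 genes held a 7mer. Among all 19550 genes with a 3′ UTR, 4.82% held an 8mer, 11.7% an 8mer or 7mer-m8, and 19.9% any of the 3 types. The 3 sites lie in SLC38A2 (chr12:46360840-46360868), GLUL (chr1:182384269-182384297) and SLC25A22 (chr11:791666-791694), all on the minus strand, and are written 5′ to 3′ with the match in capitals.

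SLC38A2: caattttattcCATTCCAgagaatggaca
GLUL: gtcgtttttttCATTCCAtgtgcccagtt
SLC25A22: cagaaatctttACATTCCtcaagctagcc

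A match of these letters is a description of the sequence and not a measured site.

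To ask whether miR-1 OE changed the glutamine genes, each line's OE libraries were set against its EV libraries. None of the 9 genes was called in MV4-11 or in Molm-14 by edgeR's quasi-likelihood test at a false discovery rate (FDR) under 5%, where 0.177% and 0.00570% of all tested genes were called. The 12 libraries share 1 estimate of spread per gene. The Molm-14 tests and intervals therefore also carry the spread of the MV4-11 libraries, and the MV4-11 ones that of the Molm-14 libraries. With only the Molm-14 groups fitted, 195 of 15714 tested genes were called, and 0 of the 9. With only the MV4-11 groups fitted, 9 of 16089 tested genes were called (31 in the shared fit), and 0 of the 9 glutamine genes. In both lines 0 of the 9 had an unadjusted p under 0.05, beside 1035 and 768 of all 17542 tested genes. DESeq2 also called 0 of 9. The median log2 fold change of the 9 genes was 0.051 in MV4-11, against 0.007 over all tested genes, and -0.040 in Molm-14, against 0. In MV4-11, 7 of the 9 values were above 0, and only 1 was without EV replicate 2.

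Among the carriers, SLC38A2 (ENSG00000134294), which holds a 7mer-A1, is a sodium-coupled carrier of small neutral amino acids. Its level in MV4-11 was 385.7, 286.4 and 227.5 CPM in the OE libraries and 264.6, 225.3 and 367.5 CPM in the EV libraries. The groups overlapped, and the log2 fold change was 0.070 with a 95% interval from -0.42 to 0.56. In Molm-14 its OE libraries lay at 284.9, 296.7 and 307.0 CPM and its EV libraries at 303.0, 302.2 and 300.3 CPM, a log2 fold change of -0.027 (interval -0.52 to 0.46).

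GLUL (ENSG00000135821), which also holds a 7mer-A1, was measured with a narrower interval. In MV4-11 it was at 350.0, 348.6 and 321.5 CPM under OE and at 347.7, 294.5 and 336.9 CPM under EV, a log2 fold change of 0.059 (interval -0.057 to 0.18). In Molm-14 every OE library (430.8, 429.0 and 449.7 CPM) was above every EV library (420.4, 420.5 and 417.9 CPM), but the difference was small, at 0.057 on the log2 scale (SE 0.0554), and was not called (FDR 1.00, edgeR).

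SLC25A22 (ENSG00000177542), the gene with a 7mer-m8, was at 17.3, 17.6 and 15.4 CPM in the Molm-14 OE libraries and at 19.4, 17.9 and 18.5 CPM in the EV libraries. The groups did not overlap, and the log2 fold change of -0.15 (interval -0.33 to 0.037) was not called. In MV4-11 the gene was at 36.4, 39.0 and 39.8 CPM under OE and at 41.1, 35.4 and 36.0 CPM under EV, and the groups overlapped (0.037 on the log2 scale).

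SLC38A1 (ENSG00000111371), another sodium-coupled glutamine carrier, was at 64.2, 55.8 and 44.8 CPM in MV4-11 OE and at 60.9, 58.0 and 71.9 CPM in MV4-11 EV, a log2 fold change of -0.21 (interval -0.45 to 0.028, FDR 0.917, edgeR). In Molm-14 its OE libraries (304.6, 302.6 and 306.9 CPM) lay below its EV libraries (327.0, 323.2 and 316.9 CPM), by -0.081 on the log2 scale, and it was not called. Non-overlapping groups were found for 3 of the 9 genes in Molm-14 (SLC38A1, GLUL and SLC25A22) and for 0 of 9 in MV4-11, where 14.9% and 9.17% of all tested genes did not overlap.

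The 5 other genes were not called either. SLC1A5 (ENSG00000105281), the exchanger of neutral amino acids that carries glutamine into many proliferating cells, stood at 0.051 on the log2 scale in MV4-11 and -0.047 in Molm-14. GLUD1 (ENSG00000148672) had the narrowest interval, from -0.083 to 0.12 in MV4-11 and from -0.12 to 0.085 in Molm-14. GOT1 (ENSG00000120053), the cytosolic aspartate transaminase, had the widest, from -0.66 to 1.13 in MV4-11 and from -0.78 to 0.70 in Molm-14. The Molm-14 interval carries the spread of the MV4-11 libraries. Within Molm-14 itself, GOT1 lay at 34.1 to 35.1 CPM under OE and at 33.2 to 38.7 CPM under EV. GOT2 (ENSG00000125166), its mitochondrial counterpart, was at 0.14 in MV4-11 and -0.027 in Molm-14, and GPT2 (ENSG00000166123), the mitochondrial alanine transaminase, at -0.20 and -0.040. The difference of the OE effect between the lines was called for 0 of the 9 genes (0.0456% of all tested genes), with 0 unadjusted p under 0.05 and 0 by DESeq2.

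**Figure D1:**
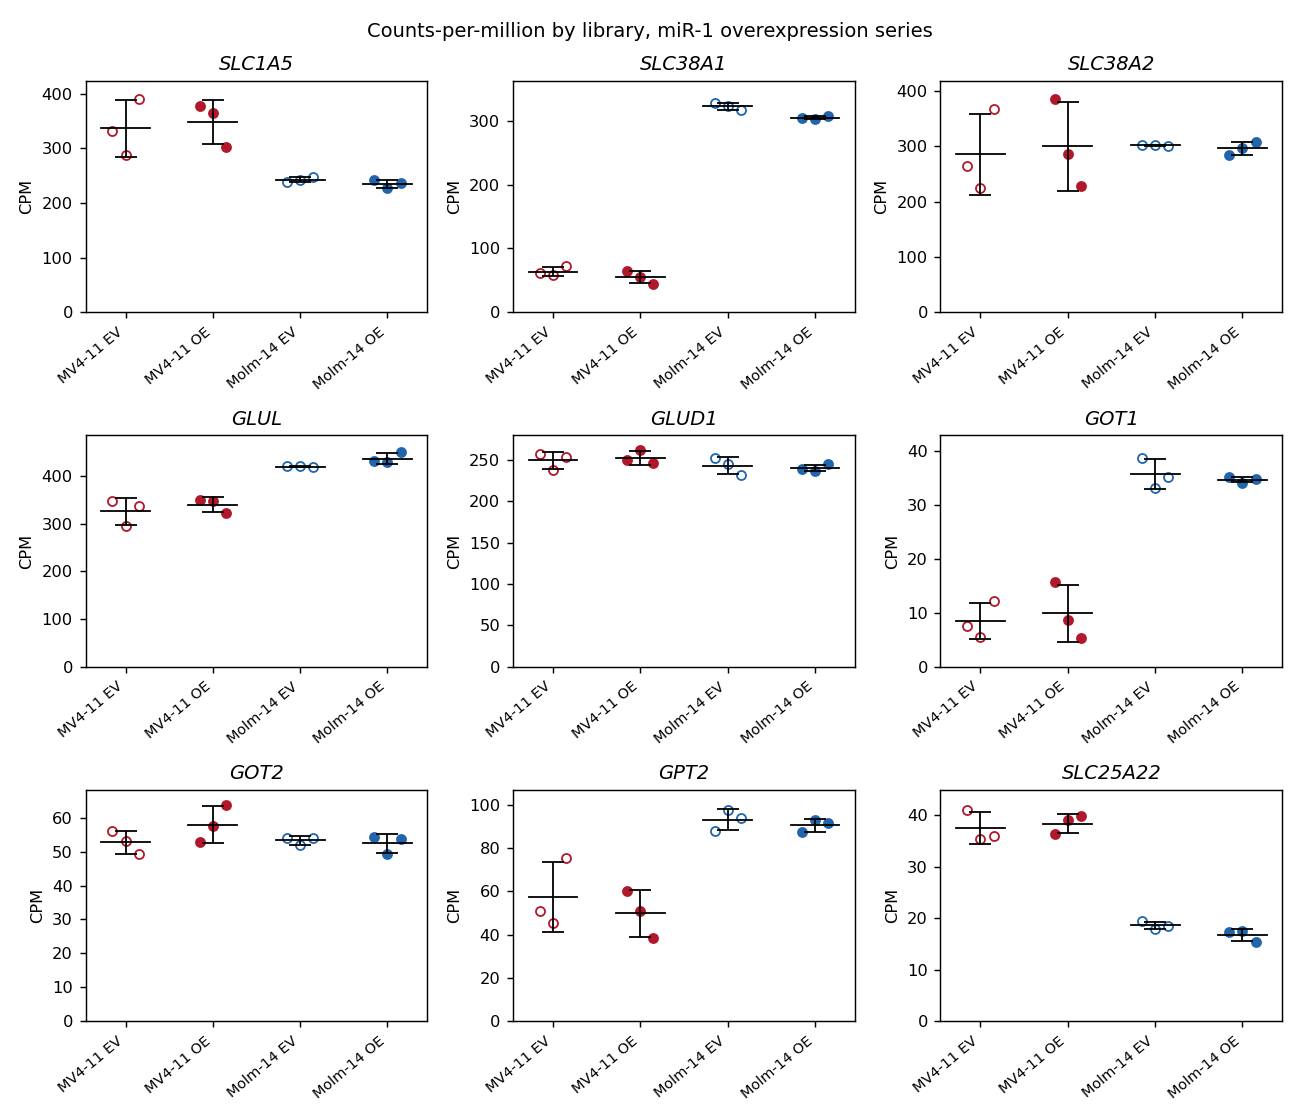
Level of each of the 9 genes in the 12 libraries of the overexpression series, in CPM (y axis, from 0) by group (x axis). Points are libraries (open EV, filled OE), long bars are group means and error bars are 1 SD (n = 3). OE and EV points overlap in every MV4-11 panel, and the spread is wider in MV4-11 than in Molm-14 for SLC38A2, GOT1 and GPT2.

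The MV4-11 libraries of this series varied among themselves. The coefficient of variation of the 9 genes had a median of 11.6% among MV4-11 OE and 11.5% among MV4-11 EV libraries, and 3.26% and 2.44% among the Molm-14 OE and EV libraries. Over the 11195 tested genes with a mean of at least 5 CPM, the medians were 7.57%, 6.71%, 4.31% and 4.50% in the same order.

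GOT1 had the widest range of the 9, from 5.28 CPM in OE replicate 3 and 5.59 in EV replicate 2 to 12.1 in EV replicate 3 and 15.7 in OE replicate 1, a 2.98-fold range. GPT2 ranged 1.97-fold, from 38.4 CPM in OE replicate 3 to 75.6 in EV replicate 3. SLC38A2 ranged 1.71-fold, SLC38A1 1.6-fold and SLC1A5 1.36-fold. For these 5 genes, the 3 plasma membrane carriers with GOT1 and GPT2, the 2 highest libraries were OE replicate 1 and EV replicate 3, the same libraries in which interferon-stimulated genes were high. That pair of libraries was the highest for 15.8% of all 17542 tested genes. The margin was small for SLC1A5 (377.9 CPM in OE replicate 1, 365.0 in OE replicate 2) and SLC38A1 (64.2 in OE replicate 1, 60.9 in EV replicate 1). GLUL, GLUD1, GOT2 and SLC25A22 did not have that order and ranged 1.1-fold to 1.29-fold. GOT2 had the reverse, with OE replicate 1 (52.7 CPM) and EV replicate 3 (49.3 CPM) as its lowest libraries.

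Among 28 tested genes of 4 neighbouring lists, 7 had the same 2 highest libraries (25.0%, beside 15.8% of all tested genes). They were the heavy and light chains of a large neutral amino acid exchanger (SLC3A2 and SLC7A5), the neutral amino acid carrier SLC1A4, the serine synthesis transaminase PSAT1, the branched-chain transaminase BCAT1, the asparagine synthetase ASNS and the hexosamine enzyme GFPT1. ASNS ranged from 3.78 to 11.7 CPM, BCAT1 from 41.7 to 114.6 CPM and PSAT1 from 36.8 to 100.3 CPM. The same 2 libraries were the lowest for SLC38A5, SLC38A7, BCAT2, OAT, ALDH18A1, ALDH4A1, SLC25A11, SLC25A10, CAD, CTPS1, CTPS2 and PFAS. For OAT they held 24.3 and 25.5 CPM, against 28.9 to 32.3 CPM in the other libraries. The share of all tested genes with this reverse order was not counted. Both orders were noticed after the values were seen, and the part of the interferon state in them was not tested. With both libraries left out together, 0 of the 9 genes was called for OE against EV in MV4-11, and the log2 fold changes ran from -0.23 (SLC38A1) to 0.16 (GOT2), while GOT1 moved from 0.23 to 0.11.

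**Figure D2:**
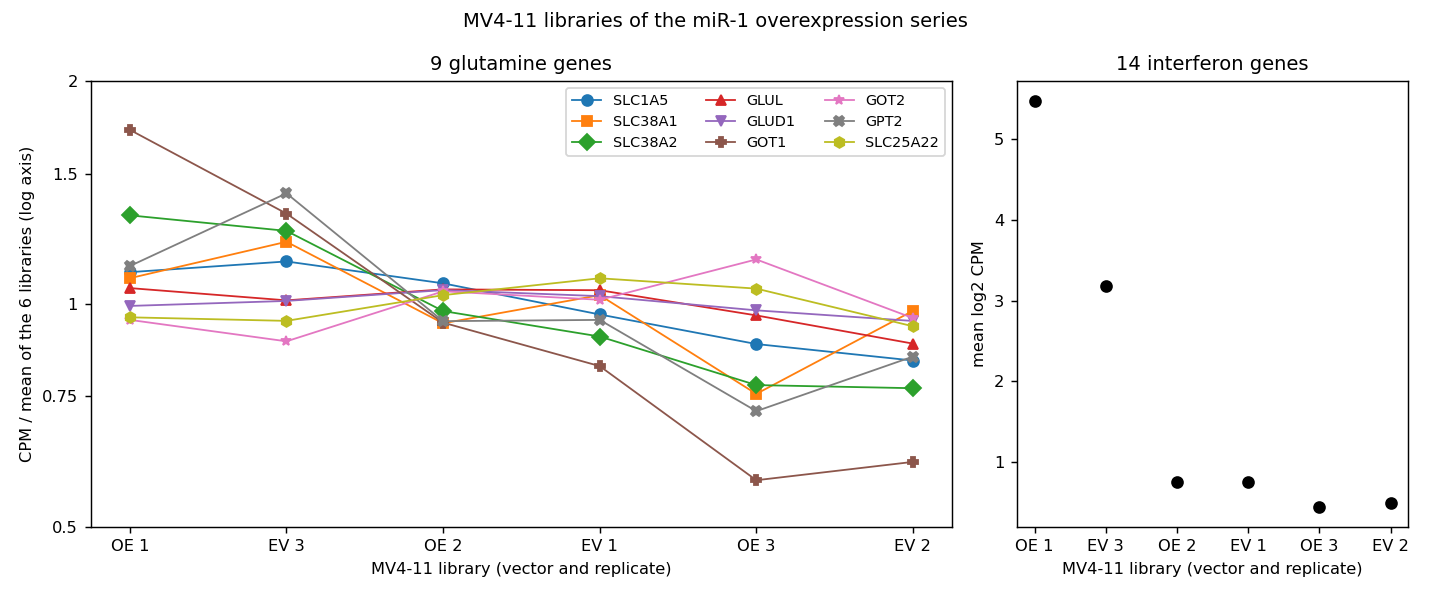
The 6 MV4-11 libraries of the overexpression series, placed from left to right in an order chosen after the values were seen. The left panel gives each gene's CPM divided by its mean over the 6 libraries on a log axis, and the right panel gives the mean log2 CPM of 14 interferon-stimulated genes. GOT1, SLC38A2, GPT2, SLC38A1 and SLC1A5 are highest in OE replicate 1 and EV replicate 3, where the interferon mean is 5.47 and 3.18.

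To ask whether loss of MPC1 changed the same genes, KO was compared with EV in 3 lines. In MV4-11, SLC38A1 rose and GOT2 fell, and the other 7 genes were not called. These are 2 of 9 genes, beside 5.41% of all tested genes called in MV4-11. In Molm-14 and in THP-1 none of the 9 was called, beside 2.40% and 0.0897% of all tested genes. DESeq2 called 2, 0 and 0 of the 9 in the same comparisons. The unadjusted p was under 0.05 for 4, 0 and 1 of the 9, beside 3236, 1552 and 1160 of all 14490 tested genes.

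SLC38A1 was at 66.9, 74.7 and 74.6 CPM in the MV4-11 EV libraries and at 113.5 CPM in KO replicate 1 and 110.2 CPM in KO replicate 3, with replicate 2 the lowest of the KO libraries. Every KO library was above every EV library, and the mean went from 72.1 ± 4.51 to 108.6 ± 5.93 CPM (SD, n = 3 each). The rise was 1.51-fold, with a log2 fold change of 0.59 (SE 0.0794, interval 0.43 to 0.76, FDR 5.62e-05, edgeR). With any 1 MV4-11 library left out it was called all 6 times, with values from 0.54 to 0.64.

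The other lines started from a higher level of SLC38A1. In Molm-14 it was at 364.1, 424.4 and 393.1 CPM under EV and at 435.7, 412.9 and 445.6 CPM under KO, and the groups overlapped (log2 fold change 0.13, interval -0.020 to 0.28, FDR 0.581, edgeR). In THP-1 the EV libraries (480.4, 502.6 and 482.2 CPM) lay just above the KO libraries (474.4, 464.1 and 447.0 CPM), and the log2 difference of -0.081 (interval -0.23 to 0.070) was not called. Even after its rise, MV4-11 KO stayed under the lowest Molm-14 and THP-1 library.

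The KO effect on SLC38A1 was larger in MV4-11 than in Molm-14 by 0.46 on the log2 scale (SE 0.108, interval 0.24 to 0.68, FDR 0.0232, edgeR) and larger than in THP-1 by 0.67 (SE 0.108, interval 0.45 to 0.89, FDR 0.00309). It was the only 1 of the 9 genes called in these tests of the difference, which called 1.48% and 0.193% of all tested genes. The SLC38A1 difference from Molm-14 was lost in 7 of 12 fits that left out 1 library (MV4-11 EV replicate 3, MV4-11 KO replicates 1 and 3, Molm-14 EV replicates 2 and 3 and Molm-14 KO replicates 1 and 2, with 0.41 to 0.49 and FDR 0.0501 to 0.0958), and the difference from THP-1 in none of 12. The SLC38A1 difference between MV4-11 and Molm-14 is one of ratio. In CPM the mean went from 72.1 to 108.6 in MV4-11 and from 393.9 to 431.4 in Molm-14, changes of similar size. Between Molm-14 and THP-1, 0 of the 9 effects differed (0.766% of all tested genes, 0 unadjusted p under 0.05, and 0 by DESeq2).

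SLC38A1 (chr12:46183063-46270017) and SLC38A2 (chr12:46358188-46372773) are neighbours on the minus strand, 88.2 kb apart (GRCh38). SLC38A2 was at 250.3, 267.9 and 262.4 CPM in MV4-11 EV and at 282.6, 266.9 and 278.3 CPM in MV4-11 KO, a log2 fold change of 0.085 (interval -0.055 to 0.22) that was not called. Because both genes are read in the same library, their ratio does not depend on the scaling. Exon length here is the union of all annotated exons of a gene. Per kilobase of exon, SLC38A1 stood at 0.174, 0.181 and 0.185 of SLC38A2 in the MV4-11 EV libraries and at 0.261, 0.248 and 0.257 in the KO libraries, with no overlap. In Molm-14 the ratio was 0.703 ± 0.0490 under EV and 0.741 ± 0.0157 under KO, and in THP-1 0.963 ± 0.0111 and 0.901 ± 0.0311 (SD, n = 3 each).

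**Figure D3:**
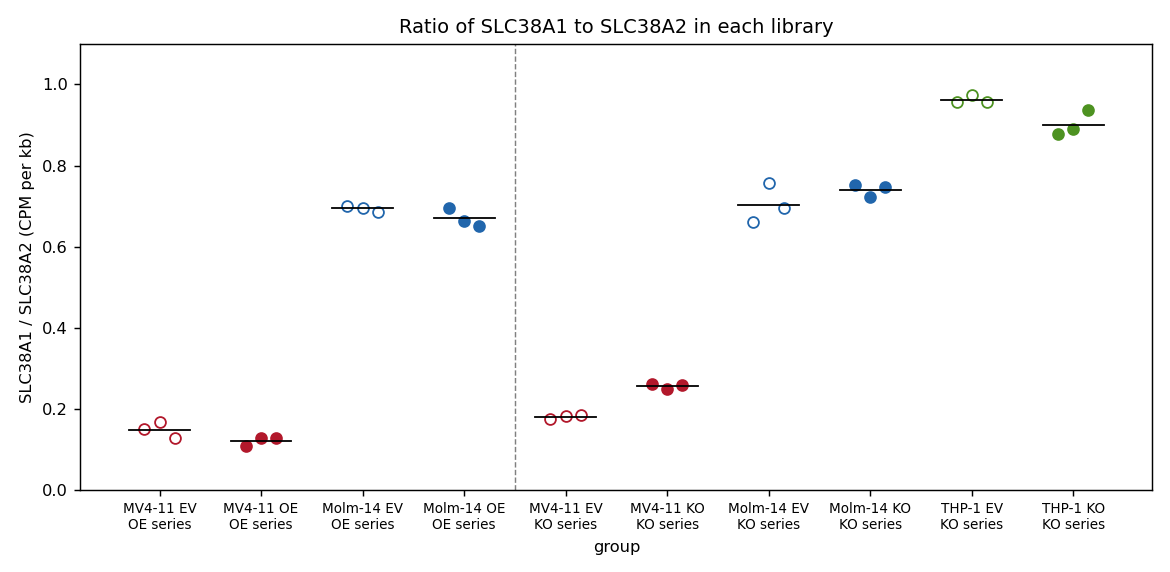
Ratio of SLC38A1 to SLC38A2, each in CPM per kilobase of exon (y axis, from 0), in each of the 30 libraries by group (x axis), with the overexpression series left of the dashed line and the knockout series right of it. Points are libraries (open EV, filled OE or KO) and bars are means (n = 3). The ratio is lowest in MV4-11, where the KO libraries (0.248 to 0.261) sit above the EV libraries (0.174 to 0.185) of the same series.

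GOT2 was at 47.6, 57.2 and 58.7 CPM in the MV4-11 EV libraries and at 42.7, 42.0 and 44.5 CPM in the KO libraries. The groups did not overlap, the mean went from 54.5 ± 6.05 to 43.0 ± 1.30 CPM (SD, n = 3 each), and the log2 fold change was -0.34 (SE 0.0917, FDR 0.0313, edgeR). The call was lost in 4 of the 6 fits that left out 1 MV4-11 library (without EV replicate 2 or 3, or KO replicate 1 or 2, FDR 0.0971 to 0.201), with no filter on low counts beyond 1 count (FDR 0.0562) and with only the groups compared (FDR 0.0873). In the same libraries the share of counts from the mitochondrial genome was 0.211%, 0.452% and 0.392% under EV and 0.161%, 0.140% and 0.202% under KO, and its part in the result was not tested. In Molm-14 and THP-1, GOT2 had log2 fold changes of 0.091 and -0.056, and the effect was not called as different between MV4-11 and either line (-0.43 and -0.28, FDR 0.0990 and 0.530, edgeR), though the difference from Molm-14 was called without MV4-11 EV replicate 1 (-0.52, FDR 0.0244).

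GOT1, which works opposite GOT2 across the mitochondrial membrane in the malate-aspartate shuttle, was at 7.20, 9.16 and 11.6 CPM in MV4-11 EV and at 7.82, 7.64 and 5.66 CPM in MV4-11 KO. The groups overlapped, and the log2 fold change of -0.39 (interval -0.72 to -0.050) missed the threshold (FDR 0.161, edgeR) and passed it without EV replicate 1 (-0.55, FDR 0.0357). In Molm-14, GOT1 was at 60.5, 57.7 and 53.5 CPM under EV and at 63.3, 66.0 and 60.8 CPM under KO, and the difference of 0.15 on the log2 scale was not called.

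GLUD1 was at 299.8, 257.8 and 265.2 CPM in MV4-11 EV and at 348.3, 328.4 and 289.1 CPM in MV4-11 KO, a log2 fold change of 0.23 with FDR 0.106 (edgeR), which was called without EV replicate 1 or KO replicate 3 (0.30 each, FDR 0.0339 and 0.0457) and with a replicate block (0.23, FDR 0.0279). The corresponding values were 0.12 in Molm-14 and 0.16 in THP-1. GLUD2, a near-identical copy of GLUD1 elsewhere in the genome, could share reads with it.

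GLUL was the only 1 of the 9 genes with an unadjusted p under 0.05 in THP-1, beside 1160 of all 14490 tested genes. It was at 626.9, 597.1 and 537.1 CPM in the THP-1 EV libraries and at 724.7, 680.6 and 643.6 CPM in the KO libraries, so the groups did not overlap, but its log2 fold change of 0.22 (interval 0.046 to 0.39) was not called (FDR 0.541, edgeR). The labels state no pairing of libraries. Only in THP-1 were deviations of same-numbered libraries positively correlated for all 3 replicates (0.38, 0.29 and 0.60), so its numbers were read as pairs. Replicate 3 had the fewest counts in both THP-1 groups, and its part in these correlations was not tested. GLUL was higher in KO in 3 of 3 such pairs, by 0.21, 0.19 and 0.26 on the log2 scale. The sign was the same in all pairs for 4 of the 9 genes. GLUD1 was also higher (0.18, 0.12 and 0.20), and SLC38A1 (-0.018, -0.12 and -0.11) and GOT2 (-0.13, -0.036 and -0.004) were lower. The share of all tested genes with 1 sign in all pairs was not counted, so this count is a description only. With the replicate number as a block, the FDR of GLUL was 0.271. In MV4-11 and Molm-14 its log2 fold changes were 0.12 and 0.020.

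The remaining genes gave no call. SLC1A5 had log2 fold changes of -0.14 in MV4-11, 0.11 in Molm-14 and 0.026 in THP-1, and GPT2 of -0.015, 0.13 and -0.019. SLC25A22, the lowest of the 9 per kilobase of exon in every group of the knockout series, was lower in every MV4-11 KO library (10.1, 8.77 and 10.2 CPM) than in every EV library (13.2, 12 and 11.4 CPM), and its log2 fold change of -0.34 (interval -0.82 to 0.14) was not called at this depth. In Molm-14 all 9 fitted values were above 0, with a median of 0.11 against 0 over all tested genes, and none was called. The count of values above 0 was 8 or 9 in the fits that left out 1 Molm-14 library. Groups did not overlap for 3 of the 9 genes in MV4-11 (SLC38A1, GOT2 and SLC25A22), 3 in Molm-14 (SLC38A2, GLUD1 and GOT1) and 2 in THP-1 (SLC38A1 and GLUL), beside 24.1%, 16.4% and 13.6% of all tested genes.

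**Figure D4:**
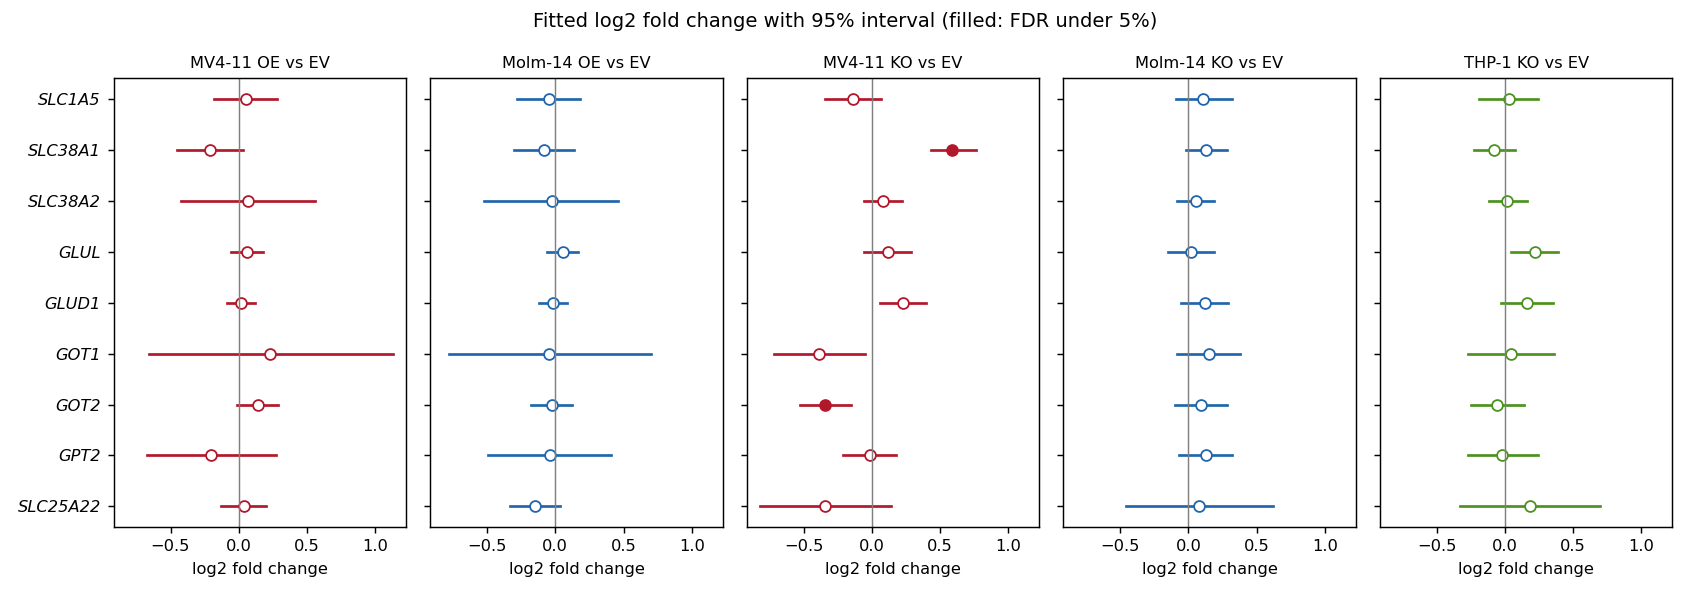
Fitted log2 fold change (x axis) of each of the 9 genes in the 5 comparisons, with the 95% interval as a line. Filled points passed an FDR of 5% and open points did not. Only SLC38A1 (0.59) and GOT2 (-0.34) in MV4-11 KO are filled, and the intervals of GOT1, SLC38A2 and GPT2 are wider in the overexpression series than in the knockout series.

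The lines were then compared with each other. In the EV libraries of the overexpression series, 6 of the 9 genes differed between MV4-11 and Molm-14 (2 higher and 4 lower in MV4-11), beside 64.8% of all tested genes. In the knockout series 4 of 9 differed between the same lines (1 higher and 3 lower), beside 61.7%. Between THP-1 and MV4-11, 6 of 9 differed (2 higher and 4 lower in THP-1), beside 67.5%, and between THP-1 and Molm-14, 6 of 9 differed (1 higher and 5 lower), beside 69.6%. These shares of the 9 genes are near or under those of all genes. Without both interferon-high libraries, the 6 calls of the overexpression series were made again (SLC1A5 0.35, SLC38A1 -2.44, GLUL -0.38, GOT1 -2.45, GPT2 -0.95 and SLC25A22 1.04), and SLC38A2 was called as well (-0.30, FDR 0.0359). GOT2, not called in either fit, changed sign (0.032). GLUD1 was not called there in either fit (0.039 and 0.030). The 3 comparisons of the knockout series share EV libraries pairwise.

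Of the carriers, SLC38A1 differed most. MV4-11 EV had 5.47-fold less of it than Molm-14 EV in the knockout series (log2 difference -2.45, FDR 6.02e-20, edgeR) and 5.07-fold less in the overexpression series (-2.34, FDR 9.89e-10). THP-1 EV had 6.78-fold more than MV4-11 EV (2.76) and 1.24-fold more than Molm-14 EV (0.31, FDR 5.28e-04). The order of its EV levels in the knockout series was therefore THP-1, Molm-14 and MV4-11, and each neighbouring pair differed.

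SLC38A2 spanned a narrower range, with 260.2 ± 9.04 CPM in MV4-11 EV, 329.7 ± 4.57 in THP-1 EV and 363.9 ± 4.86 in Molm-14 EV (SD, n = 3 each). MV4-11 differed from both, and Molm-14 and THP-1 were not called as different (FDR 0.0628, edgeR). In the overexpression series SLC38A2 was not called between MV4-11 and Molm-14 (-0.080, FDR 0.767), and it was called (-0.30, FDR 0.0359) with OE replicate 1 and EV replicate 3 of MV4-11 left out. SLC1A5 was lowest in THP-1, at 142.4 ± 8.02 CPM against 223.6 ± 19.4 in MV4-11 and 196.2 ± 19.4 in Molm-14. It was higher in MV4-11 than in Molm-14 in the overexpression series (0.47, FDR 0.00185), and the knockout series gave 0.19 with no call (FDR 0.106), though it was called when scaled by total counts (0.28), with only the groups compared (0.23) and without MV4-11 EV replicate 2 (0.26).

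GLUD1 and GPT2 were low in THP-1. GLUD1 was 3.46-fold lower in THP-1 than in MV4-11 and 3.85-fold lower than in Molm-14, with EV levels of 79.2 ± 7.02, 274.3 ± 22.4 and 305.8 ± 18.8 CPM. GPT2 was 4.53-fold and 5.09-fold lower in THP-1, at 19.3 ± 1.62 against 87.7 ± 5.96 and 98.5 ± 8.01 CPM. Neither gene was called between MV4-11 and Molm-14 in the knockout series (GLUD1 was without MV4-11 EV replicate 1, at -0.23 with FDR 0.0326), and GPT2 was lower in MV4-11 in the overexpression series (-0.70, FDR 0.0134, edgeR).

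GOT1 set Molm-14 apart. It was at 57.3 ± 3.52 CPM in Molm-14 EV, 11.4 ± 0.548 in THP-1 EV and 9.31 ± 2.19 in MV4-11 EV, so that Molm-14 had 6.22-fold more than MV4-11 and 5.03-fold more than THP-1, while MV4-11 and THP-1 were not called as different (0.31, FDR 0.0826, edgeR), a call that was made with RLE factors (0.36, FDR 0.0449) and without MV4-11 EV replicate 3 (0.48, FDR 0.0124). In the overexpression series the difference between MV4-11 and Molm-14 was 4.28-fold. GOT2, by contrast, lay at 54.5 ± 6.05, 47.7 ± 2.66 and 50.4 ± 0.699 CPM in MV4-11, Molm-14 and THP-1 EV and was called in no comparison between lines, except between MV4-11 and Molm-14 in the knockout series when scaled by total counts (0.28, FDR 0.0106) or without MV4-11 EV replicate 1 (0.28, FDR 0.0129).

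GLUL was lower in THP-1 EV (587.0 ± 45.8 CPM) than in MV4-11 (740.7 ± 70.6) and Molm-14 (789.6 ± 54.7), by -0.34 and -0.43 on the log2 scale, and MV4-11 and Molm-14 were not called as different in that series (FDR 0.352, edgeR). In the overexpression series GLUL was lower in MV4-11 (-0.36, FDR 9.80e-06). SLC25A22 was not called between THP-1 and Molm-14 (0.37, FDR 0.207) or between THP-1 and MV4-11 (-0.38, FDR 0.166), though the latter was called without THP-1 EV replicate 1 (-0.63, FDR 0.0397). It was higher in MV4-11 than in Molm-14 in both series (1.01 and 0.75), and the value of the knockout series lost its call without Molm-14 EV replicate 3 (0.58, FDR 0.0649). Reads of SLC1A5, GLUD1, GOT2 and SLC25A22 could include reads of genes that overlap their exons on the other strand (SHLD2 and PANO1 among them), since the strand setting of the counting is not given in the sources used here.

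**Figure D5:**
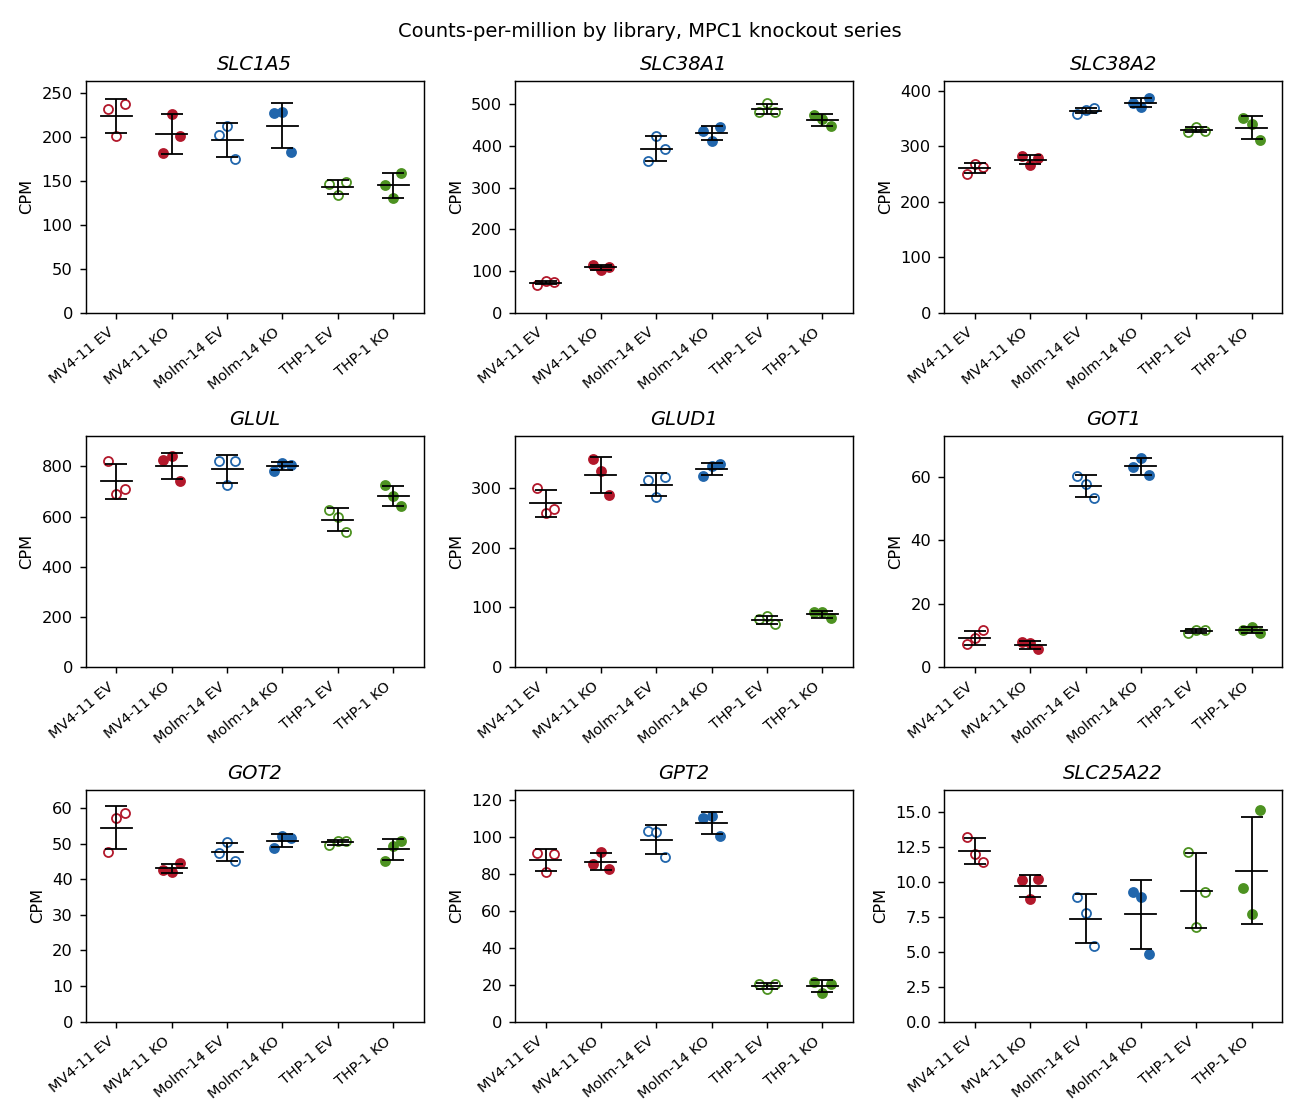
Level of each of the 9 genes in the 18 libraries of the knockout series, in CPM (y axis, from 0) by group (x axis). Points are libraries (open EV, filled KO), long bars are group means and error bars are 1 SD (n = 3). SLC38A1 is low in MV4-11 and rises there under KO, GLUD1 and GPT2 are low in THP-1, and GOT1 is high in Molm-14 only.

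Compared per kilobase of exon within the knockout series, SLC1A5, GLUL and SLC38A2 were among the 4 highest of the 9 levels in each EV group. This order of genes depends on the union of all annotated exons, which was 14.283 kb for GLUD1, 12.638 kb for GLUL and 3.332 kb for SLC1A5. The isoforms present in these cells were not determined, and the order could differ with their lengths. In MV4-11 EV, SLC1A5 stood at 67.1 and GLUL at 58.6 CPM per kb, against 7.20 for SLC38A1. In THP-1 EV the order was SLC38A2 (50.7), SLC38A1 (48.8), GLUL (46.5) and SLC1A5 (42.7). Among the transaminases, GOT2 (14.5) and GPT2 (13.8) exceeded GOT1 (3.84) in MV4-11 EV, while GOT1 (23.6) exceeded both in Molm-14 EV.

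Promoter windows were read to describe the sequence around the gene starts, and a link between motifs and levels was not tested. In RefSeq windows from 250 bases before to 50 after each annotated start (GRCh38.p14), both strands of 15 windows of 8 genes (4 for SLC25A22, 3 for SLC1A5, 2 each for GLUL and SLC38A1, and 1 for each other gene) were searched for TGATGNAA, a form of the amino acid response element, and CACGTG, the E-box. Of 35116 windows in all, 3.62% held the former and 7.26% the latter, against 3 and 2 of the 15. CACGTG was found in 1 window each of SLC1A5 and SLC25A22. TGATGNAA was found in a window of GOT1 (minus strand of the gene, starting at -198), SLC38A1 (-4 of 1 start) and SLC1A5 (-97 of an alternative start), shown 5′ to 3′ on the gene's strand with the match in capitals. SLC38A2 held neither in its window, and no entry was matched for GPT2.

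GOT1 (chr10:99430804-99430833): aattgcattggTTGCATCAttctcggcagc
SLC38A1 (chr12:46266502-46266531): tcagacccgaaTGATGAAAagggatcagct
SLC1A5 (chr19:46784893-46784922): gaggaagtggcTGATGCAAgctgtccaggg

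These letters describe the windows, and no binding was measured.

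The neighbouring genes of the pathway were read from 4 lists of 36 genes, of which 28 were tested in each series. They hold other amino acid carriers (8 tested), other enzymes of glutamate (7), other mitochondrial carriers of glutamate, aspartate and 2-oxoglutarate (4), and glutamine amidotransferases (9), which use the amide nitrogen of glutamine in synthesis. Under OE, 0 of the 28 were called in either line by edgeR or DESeq2 (0.177% and 0.00570% of all tested genes were called by edgeR). An unadjusted p under 0.05 was found for 2 in MV4-11 and 0 in Molm-14, beside 1035 and 768 of all 17542 tested genes.

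In MV4-11 KO, 4 of the 28 were called, 1 higher and 3 lower (6 by DESeq2), which is 14.3% beside 5.41% of all tested genes. The lists were chosen with earlier results of these data known, so these shares are a description only. SLC38A7, a lysosomal glutamine carrier, fell from 5.77 ± 0.538 to 2.63 ± 0.794 CPM, a low level at this depth (log2 fold change -1.12, FDR 0.00890, edgeR). PSAT1, which makes 2-oxoglutarate from glutamate in serine synthesis, fell from 44.6 ± 6.95 to 29.1 ± 3.54 CPM (-0.61, FDR 0.00187). CTPS1, which uses glutamine to make CTP, fell from 130.8 ± 6.66 to 102.7 ± 4.19 CPM (-0.35, FDR 0.0112), and BCAT1 rose from 57.0 ± 1.47 to 75.1 ± 7.93 CPM (0.40, FDR 0.00758). None of the 4 mitochondrial carriers was called. Fits that left out 1 library are not given for SLC38A7, PSAT1, CTPS1 and BCAT1. In such fits the calls over all tested genes in MV4-11 KO ran from 133 to 1400 (784 reported).

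In Molm-14 KO, 1 of the 28 was called, 3.57% beside 2.40% of all tested genes, which is near the background. GFPT1, the glutamine-using first enzyme of the hexosamine pathway, fell from 111.3 ± 2.32 to 85.3 ± 3.44 CPM (-0.39, FDR 0.0103, edgeR). In THP-1 KO 0 of the 28 were called by edgeR or DESeq2 (0.0897% of all tested genes were called by edgeR). An unadjusted p under 0.05 was found for 3 of the 28, beside 1160 of all 14490 tested genes. The KO effect differed between MV4-11 and Molm-14 for SLC38A7, PSAT1 and CTPS1 (-1.25, -0.88 and -0.59) and between MV4-11 and THP-1 for PSAT1 (-0.82, FDR 0.0118), beside 1.48% and 0.193% of all tested genes.

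Between the lines, 16 of the 28 were called for MV4-11 against Molm-14 EV with overexpression controls and 23 with knockout controls, 22 for THP-1 against MV4-11 and 26 for THP-1 against Molm-14 (57.1%, 82.1%, 78.6% and 92.9%, beside 64.8%, 61.7%, 67.5% and 69.6% of all tested genes). BCAT1 was at 57.0 ± 1.47 CPM in MV4-11 EV and 912.7 ± 9.88 in Molm-14 EV of the knockout series (SD, n = 3 each; FDR 1.90e-23, edgeR), and was higher in THP-1 than in MV4-11 by 2.08 on the log2 scale (FDR 4.57e-18). ASNS, the asparagine synthetase, was at 26.0 ± 1.92 CPM in MV4-11, 13.6 ± 3.67 in THP-1 and 90.3 ± 3.66 in Molm-14.

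The genes whose log2 CPM followed each of the 9 most closely over the 18 knockout libraries were sought among 9366 genes with a mean of at least 10 CPM. SLC38A1 was most like ADGRL2, GPX7 and SENP6 (Pearson r 0.99 for each, and 0.99 for each over the 12 overexpression libraries). GOT1 was most like TBC1D4, JAG1 and SPRED1 (0.99 each, and 0.96, 0.93 and 0.92 in the overexpression series). GLUD1 was most like PHB2, NUP88 and NOP56 (1.00 each), which did not carry over to the overexpression series (0.46, -0.56 and -0.26), where GLUD1 group means spanned 1.05-fold. SLC1A5 was most like MKNK2, PIAS4 and TRAF7 (0.97 to 0.98, and 0.84 to 0.90 in the overexpression series). For GLUL the leading gene was ATP5F1A (0.97 and 0.71), for SLC38A2 RO60 (0.98 and 0.16), for GPT2 ELAC2 (0.99 and -0.79), for GOT2 SRM (0.90 and 0.60) and for SLC25A22 UCK1 (0.86 and 0.30). The libraries fall into 3 lines, so these values follow the differences between lines and are a description only.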

How the data were processed

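RNA was measured in 30 libraries (3 per group, 10 groups). The kit named in the labels keeps strand and depletes ribosomal RNA from total RNA. Per the submitters' processing notes and the study's methods, the authors took out optical duplicates, trimmed reads with cutadapt 1.16, aligned them to GRCh38 with STAR 2.7.6a and counted genes with featureCounts 1.6.3, and the deposited values are raw counts per gene. Symbols and loci came from GENCODE release 44, which held 60419 and 56948 of the gene IDs.

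Counts were fitted with edgeR 4.0.16 in R 4.3.3 (filterByExpr, TMM, robust quasi-likelihood, all libraries of a series in 1 model), adjusted by Benjamini-Hochberg over all tested genes and called at an FDR under 5%. The series were counted separately, so no level was compared between them. The 9 genes and the lists were chosen with earlier results of these data known. The rule for named genes took all 9 genes, up to 3 called genes per list and comparison (for the comparisons of lines, counts and 2 of these genes are given), the most similar genes (up to 3) for each of the 9, and MPC1 and MIR133A1HG as a check. Some genes of the pathway are not reported here. The order of the MV4-11 libraries, the genes named in it and the ratio of SLC38A1 to SLC38A2 were chosen after their values were seen.

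Replicates differed by more than counting noise (chi-square per degree of freedom 1.50 to 15.8), and all were kept. The labels state no pairing. Replicate numbers were read as pairs only for THP-1 KO and EV, where the correlations of same-numbered deviations were 0.38, 0.29 and 0.60. The fits were tested on simulated counts. Alternatives were RLE factors, total counts, no filter beyond 1 count, DESeq2 1.42.0, a replicate block, only the groups compared, leaving out each library, and, added after the data were seen, leaving out both interferon-high libraries.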

Additional observations from a re-analysis of the deposited data

Results flagged for a closer look

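The KO effect on SLC38A1 differed between lines by a test of the difference itself. It was larger in MV4-11 than in Molm-14 by 0.46 on the log2 scale (FDR 0.0232, edgeR) and larger in MV4-11 than in THP-1 by 0.67 (FDR 0.00309). The SLC38A1 difference from Molm-14 was lost in 7 of 12 fits that left out 1 library and with only the groups compared (0.43, FDR 0.0587), and that from THP-1 in none of 12. All 3 MV4-11 KO libraries were above all 3 EV libraries, whereas the Molm-14 groups overlapped and the THP-1 KO libraries were below the EV libraries. MV4-11 EV also had the lowest SLC38A1 level of the 3 lines, at 72.1 CPM against 393.9 in Molm-14 and 488.4 in THP-1. Under KO the means were 108.6 CPM in MV4-11 and 431.4 in Molm-14, so the changes in CPM were of similar size in these lines.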

How the results depend on the processing

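The rise of SLC38A1 in MV4-11 KO kept its direction and its call under every alternative run. The count of called genes among the 9 in MV4-11 KO was 2, and it was 1 with no filter beyond 1 count, 1 with only the groups compared, and 1 to 4 when 1 library was left out. The count for the KO effect in MV4-11 minus Molm-14 was 1, and it was 0 with only the groups compared and 0 to 3 when 1 library was left out. Without MV4-11 EV replicate 1, GLUD1 (0.30) and GOT1 (-0.55) were also called in MV4-11 KO, and GOT1 (-0.70) and GOT2 (-0.52) in the difference from Molm-14. The causes were not tested. Over all tested genes, calls in MV4-11 KO ran from 133 to 1474 over the alternatives (784 reported), in MV4-11 OE from 9 to 123 (31), in Molm-14 OE from 1 to 195 (1), in Molm-14 KO from 183 to 412 (348) and in THP-1 KO from 3 to 30 (13). For the differences of effects they ran from 2 to 33 (8) for OE, and for KO from 105 to 388 (215) in MV4-11 minus Molm-14 and from 18 to 80 (28) in MV4-11 minus THP-1.

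With the replicate number as a block, 3 of the 9 genes were called in MV4-11 KO (GLUD1 added, 0.23, FDR 0.0279), where the numbers did not pair the libraries (correlations 0.008, -0.54 and 0.21), and no other call of the 9 changed. In THP-1, where the numbers were read as pairs, 0 of 9 were called with the block.

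The sign turned in 67 of 1645 refits of a gene's log2 fold change, and in each of them the value was called in neither fit. GLUL in the OE effect of MV4-11 minus Molm-14 was -0.005 with RLE factors and -0.004 with DESeq2, and GPT2 in the KO effect of MV4-11 minus THP-1 was -0.001, 0 and -0.014 with RLE factors, DESeq2 and only the groups compared. With total counts, GOT2 in MV4-11 against Molm-14 EV (overexpression series) was 0.026, GLUL in the same lines (knockout series) 0.004, and SLC38A2 in THP-1 KO -0.002. SLC38A2 in the KO effect of MV4-11 minus Molm-14 was -0.006 with only the groups compared, and GOT2 between the EV lines of the overexpression series was 0.032 without both interferon-high libraries. When 1 library was left out, sign-turning log2 fold changes ran between the following values. The ranges for the KO effect in Molm-14 minus THP-1 were GLUD1 -0.10 to 0.025, SLC25A22 -0.36 to 0.21 and SLC38A2 -0.012 to 0.077. The ranges for OE in MV4-11 were GLUD1 -0.013 to 0.043, GLUL -0.008 to 0.11, GOT1 -0.25 to 0.59, GPT2 -0.35 to 0.049, SLC1A5 -0.049 to 0.17, SLC25A22 -0.003 to 0.11 and SLC38A2 -0.15 to 0.29. The ranges for OE in Molm-14 were GLUD1 -0.048 to 0.018, GOT1 -0.093 to 0.025, GOT2 -0.055 to 0.017 and SLC38A2 -0.054 to 0. The ranges for the OE effect in MV4-11 minus Molm-14 were GLUD1 -0.011 to 0.066, GLUL -0.065 to 0.053, GOT1 -0.20 to 0.63, GPT2 -0.31 to 0.089, SLC1A5 -0.002 to 0.22 and SLC38A2 -0.12 to 0.32. The ranges for KO in Molm-14 were GLUL -0.037 to 0.051 and SLC25A22 -0.10 to 0.32. The ranges for KO in THP-1 were GOT1 -0.016 to 0.092, GPT2 -0.11 to 0.12, SLC1A5 -0.043 to 0.10, SLC25A22 -0.12 to 0.44 and SLC38A2 -0.020 to 0.069. The ranges for MV4-11 against Molm-14 EV in the overexpression series were GOT2 -0.061 to 0.031 and SLC38A2 -0.30 to 0.066. The ranges for the KO effect in MV4-11 minus THP-1 were GPT2 -0.13 to 0.092. The ranges for KO in MV4-11 were GPT2 -0.071 to 0.017. The number of the 9 values above 0 in MV4-11 OE (7) ran from 1 to 8 in these fits. Depth limits the knockout series most, where GOT1 and SLC25A22 had as few as 45 and 31 counts in a library.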
